A study of Homo sapiens with 6 samples.

Results

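Levels of 48 genes that act in the G2 phase of the cell cycle and in mitosis were measured in K562 cells, a human line derived from an erythroid leukemia, after iron chelation. The genes were found by matching each transcript in the 6 libraries to its GENCODE release 44 gene name and summing its transcripts. All 48 were found among 62252 genes. The Chelator group (n = 3) was exposed overnight to 10 µM 21H7, a membrane-permeable chelator of iron, and the DMSO group (n = 3) to the same volume of the DMSO solvent in the same medium with serum. Polyadenylated RNA was sequenced as read pairs, and the comparison asks what loss of available iron does to the transcriptome of these cells. Libraries held between 78616000 and 101095000 estimated counts. Fragment length was inferred for each library as transcript length less Salmon's effective length, over long transcripts without counts. The median of this value was 253 to 265 bases in DMSO libraries and 201 to 219 in Chelator libraries, so the groups did not overlap. DMSO replicate 2 stood apart from the other DMSO libraries, with a chi-square per gene of 57.3 and 40.1 against each of them, while those differed from each other by 7.97. Chelator replicate 1 differed from Chelator replicates 2 and 3 by 27.2 and 25.7, and those from each other by 6.18. No label says that the replicates were separate cultures, so p-values measure the spread between these libraries, which may be technical.

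A cell enters mitosis when the kinase CDK1, bound to a B-type cyclin, escapes the inhibitory phosphates that WEE1 and PKMYT1 place on it and that CDC25 phosphatases remove. Chromosomes then attach through kinetochores to spindle microtubules, the spindle checkpoint holds the cell until every pair is attached, and the APC/C ubiquitin ligase with CDC20 frees separase to open the cohesin rings. Transcripts of these genes are low in G1 and accumulate through S and G2, under the MuvB complex with B-MYB and FOXM1, and the MuvB subunit LIN54 binds a short element near the transcription start called CHR. In bulk RNA, fewer cells in a phase and less RNA per cell cannot be told apart.

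The promoters show a sequence feature that the list of genes did not use. RefSeq windows of 250 bases before to 50 after the start (GRCh38.p14) were at hand for 38 of the 48 genes, taking for each gene the start nearest to that of its most abundant transcript. There was no window for AURKA, BIRC5, BUB3, FOXM1, PKMYT1, RACGAP1, TPX2, TTK, UBE2C and WEE1. A CHR, searched as TTTGAA or TTCGAA on both strands, lay in 28 of the 38 windows (73.7%), against 14.4% of 19035 promoter windows of all genes. The box CCAAT, which the factor NF-Y binds, lay in 31 (81.6%, against 36.2% of all), and 21 held at least 2 of them (55.3%, against 12.4%). Both elements lay in 23 windows (60.5%, against 6.0%). The E2F letters TTTGGCGC or TTTCCCGC lay in 3 (7.89%, against 2.90%). CHR and CCAAT matches can overlap, as they do in MKI67. The 120 bases before the RefSeq start are printed for 5 genes that fell after chelation and for 3 that rose, to show stretches with these elements before genes that went in opposite directions and, in NDC80, a stretch without them. Capitals mark CHR, CCAAT and E2F matches in either orientation, and each sequence reads 5′ to 3′ on the strand of the gene. Positions were MKI67 chr10:128126424-128126543 (minus strand), CENPF chr1:214603075-214603194 (plus strand), INCENP chr11:62123891-62124010 (plus strand), KIF11 chr10:92593010-92593129 (plus strand), CDC25A chr3:48188418-48188537 (minus strand), CCNB2 chr15:59105026-59105145 (plus strand), CDC25C chr5:138331805-138331924 (minus strand) and NDC80 chr18:2571437-2571556 (plus strand).
MKI67: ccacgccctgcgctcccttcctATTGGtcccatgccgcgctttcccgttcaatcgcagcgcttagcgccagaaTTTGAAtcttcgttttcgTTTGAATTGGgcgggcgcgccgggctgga
CENPF: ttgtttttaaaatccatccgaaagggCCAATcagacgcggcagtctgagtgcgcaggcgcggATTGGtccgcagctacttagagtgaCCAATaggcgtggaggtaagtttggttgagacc
INCENP: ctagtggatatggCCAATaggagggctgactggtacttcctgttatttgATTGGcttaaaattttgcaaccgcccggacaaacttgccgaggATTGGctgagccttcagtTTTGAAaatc
KIF11: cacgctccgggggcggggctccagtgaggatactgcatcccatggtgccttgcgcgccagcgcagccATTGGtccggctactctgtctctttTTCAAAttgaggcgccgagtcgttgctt
CDC25A: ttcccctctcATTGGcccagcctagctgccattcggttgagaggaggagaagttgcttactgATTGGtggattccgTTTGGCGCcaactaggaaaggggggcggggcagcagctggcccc
CCNB2: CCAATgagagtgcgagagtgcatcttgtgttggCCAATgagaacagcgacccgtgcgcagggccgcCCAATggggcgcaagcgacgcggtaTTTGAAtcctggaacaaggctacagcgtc
CDC25C: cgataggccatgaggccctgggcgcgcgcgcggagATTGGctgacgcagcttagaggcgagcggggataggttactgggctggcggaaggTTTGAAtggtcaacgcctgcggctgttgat
NDC80: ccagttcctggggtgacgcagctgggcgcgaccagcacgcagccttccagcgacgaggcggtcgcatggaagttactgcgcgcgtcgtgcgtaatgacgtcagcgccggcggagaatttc

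The CHR nearest to the start began 29 bases before it in MKI67, 28 in KIF11, 29 in CCNB2 and 30 in CDC25C, and 10 bases before it in INCENP. The RefSeq start used for MKI67 lies 219 bases from that of its most abundant transcript. CENPF had 3 CCAAT boxes and no CHR in the stretch printed, and CDC25A had 2 CCAAT boxes with an E2F match. Within 120 bases of the start, all 10 stretches of genes that fell held at least 1 match, and 4 of the 7 of genes that rose did, those of MAD2L1, NDC80 and NUF2 being without. Over the whole windows these 3 genes each held a CHR. Stretches of 120 bases were not counted for members that did not pass or for all genes. The counts for stretches of genes that rose and fell therefore have no background. Of all 7 whole windows of genes that rose, 6 held a CHR and 5 a CCAAT. Of the 10 windows of genes that fell, 7 held a CHR and 9 a CCAAT, and of the 21 windows of genes that did not pass the test, 15 held a CHR and 17 a CCAAT. The median log2 fold change was -0.02 over the 28 genes with a CHR and about the same, at -0.00065, over the 10 without. A match is a description of letters and not a bound site.

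G2 and mitosis genes did not move as a block. After chelation, 9 of the 48 rose, 13 fell and 26 did not pass the test, at an adjusted p under 0.05 by DESeq2. Over all 26074 genes tested, 18.2% rose and 17.1% fell by that rule. None of the 48 was called at the study's threshold, which also asks for an absolute log2 fold change above 1, and 10.1% of all genes were. The median log2 fold change of the 48 was -0.04, against 0.02 over all genes tested.

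A comparison with genes of like abundance gave a different background. Apart from UBE2C, each of the 48 had a mean normalized count (estimated count divided by the library's size factor and the gene's length offset) of at least 1000. Among the 8942 genes at or above that level, a limit chosen after seeing the data, 24.6% rose, 38.0% fell and 4.91% were called with the fold threshold, and the median log2 fold change was -0.09. Of the 47 mitosis genes at that level, 9 rose (19.1%) and 13 fell (27.7%). The values of the groups did not overlap for 25 of the 47, with Chelator above in 12 and below in 13, whereas they did not overlap for 69.5% of the 8942. The shares of mitosis genes that rose, that fell and that did not overlap were each below the share among these abundant genes.

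The summed level of the 48 genes stayed near the same value. In DMSO it was 3398, 3783 and 3520 TPM (a level per transcript length, with an equal total for each library), and in Chelator 3577, 3573 and 3584 TPM, or 3567 ± 197 and 3578 ± 5.27 (SD, n = 3). All Chelator values lay inside the DMSO range. Apart from UBE2C, mean levels ran from 15.6 TPM for CDC25C to 206 TPM for CCNB1 over the 6 libraries.

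**Figure D1:**
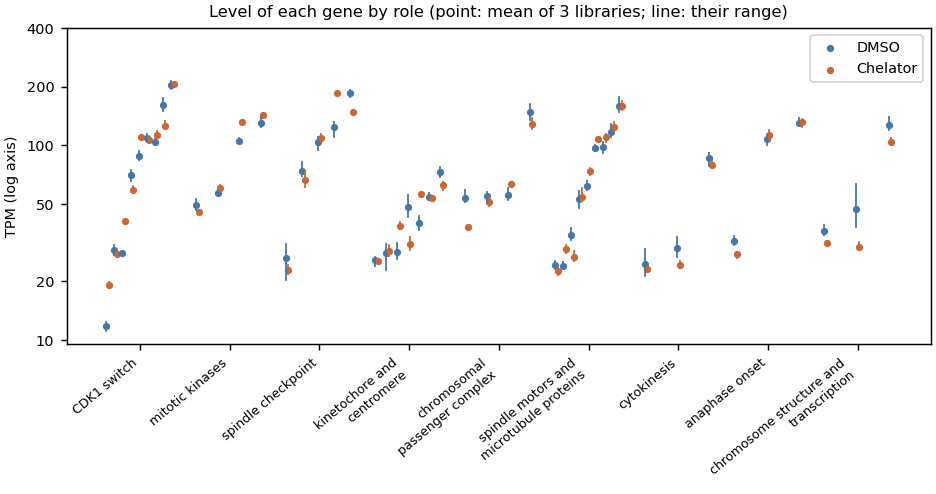
Mean TPM over 3 libraries (points, log axis) and the range of the libraries (lines) of 47 genes, grouped by role and ordered by level within a role, for DMSO and Chelator. CCNB1 was the most abundant at 205 TPM in DMSO and CDC25C the least at 11.8 TPM. UBE2C is not drawn.

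Direction depended in part on the scaling. When the average log2 change was set to 0, which moved the median of all genes by -0.17, 5 of the 48 rose and 26 fell, against 13 and 12 with TMM size factors, 11 and 12 with edgeR and 13 and 14 with the GC and length trends taken out. Centring added 13 genes below DMSO, with log2 values of -0.39 for TTK, -0.35 for BUB1, -0.32 for PLK4 and RACGAP1, -0.30 for AURKB and KIF23, -0.28 for ECT2, -0.25 for CDC25B, -0.23 for PKMYT1, -0.21 for SPC25, -0.20 for TPX2 and -0.18 for CCNB1 and CDC20, at adjusted p from 0.00077 to 0.0498. Centring also turned the split of all genes called with the fold threshold from 1996 higher and 628 lower to 1606 higher and 1063 lower. None of the 22 genes that passed the test changed sign under any alternative, and 13 of them passed in every alternative: BUB3, CCNA2, CDC25A, CENPF, ESPL1, FOXM1, INCENP, MKI67 and SPC24 below DMSO, and CDC25C, NDC80, NUF2 and WEE1 above it.

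**Figure D2:**
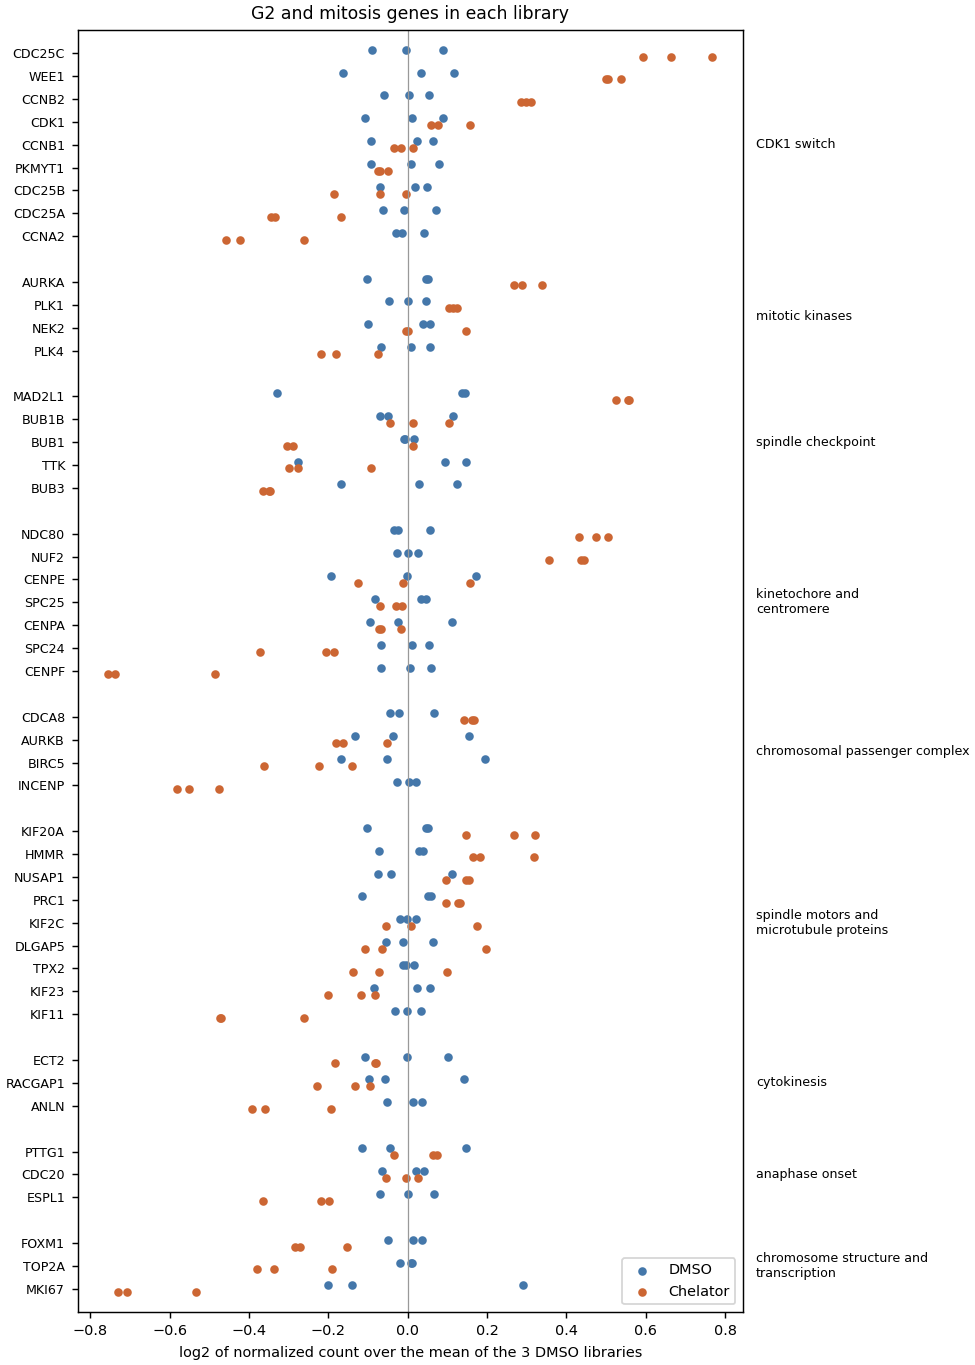
Each point is the log2 of a library's normalized count over the mean of the 3 DMSO libraries, for 47 genes grouped by role, with DMSO and Chelator as colours. In the CDK1 switch, CDC25C, WEE1 and CCNB2 lie above 0 in every Chelator library and CCNA2 and CDC25A below it. MKI67 in DMSO replicate 2 stands to the right of the other DMSO libraries. UBE2C is not drawn.

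Among the 9 genes of the CDK1 switch, 3 rose and 2 fell, and those that rose included both a brake and an activator. CDC25C (chr5:138285269-138338355, minus strand, GRCh38), a phosphatase that removes the inhibitory phosphates from CDK1, had 1294, 1220 and 1379 normalized counts in DMSO and 2209, 1958 and 2055 in Chelator. It had the largest rise of the genes that passed, with a log2 fold change of 0.68 ± 0.0973 (SE, adjusted p = 4.22e-11). The groups were far apart although it was the least abundant of the well measured genes. WEE1 (chr11:9573670-9593457, plus strand), the kinase that adds the inhibitory phosphate, had 7025, 5788 and 6641 normalized counts in DMSO and 9200, 9165 and 9412 in Chelator. Its log2 fold change was 0.51 ± 0.0846 (adjusted p = 1.16e-08), and DMSO replicate 2 was its lowest library.

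The cyclins went apart. CCNB2, a B-type cyclin, had 7246, 6695 and 6998 normalized counts in DMSO and 8655, 8588 and 8513 in Chelator, a log2 fold change of 0.30 ± 0.0673 (adjusted p = 5.04e-05) without overlap. Centred on the mean change it had 0.13 and did not pass (adjusted p = 0.177). CCNA2, cyclin A2, which acts in S phase and G2, had 26581, 26305 and 27600 in DMSO and 22380, 19514 and 20020 in Chelator. It fell by 0.38 ± 0.074 on the log2 scale (adjusted p = 2.17e-06), and all 3 Chelator libraries were below all DMSO libraries. CCNB1, the main mitotic cyclin, had 18525, 17075 and 19054 in DMSO and 18003, 17782 and 18385 in Chelator. Its Chelator values lay within the DMSO range, and the 95% interval of its log2 difference was -0.15 to 0.12, but centred on the mean change it passed at -0.18 (adjusted p = 0.0498).

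CDK1 itself had 9837, 8571 and 9317 normalized counts in DMSO and 9752, 9629 and 10302 in Chelator. The groups overlapped, and its log2 fold change of 0.10 ± 0.0767 did not pass (adjusted p = 0.352, 95% interval -0.05 to 0.25). With the trends of counts with GC content and transcript length taken out, the value was 0.40 with an adjusted p of 1.55e-05. CDC25A, the phosphatase that acts at the G1/S step as well as in mitosis, fell by 0.28 on the log2 scale (adjusted p = 0.00125). CDC25B, the third phosphatase of this family, and PKMYT1, the membrane-bound relative of WEE1, had log2 fold changes of -0.08 and -0.06 and did not pass. Both passed below DMSO once those trends were taken out, at -0.24 for CDC25B and -0.44 for PKMYT1. PKMYT1 shares 28.3% of its 31-base stretches with other genes, chiefly PAQR4 on the opposite strand, and its counts are uncertain to that extent.

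Of the 4 other mitotic kinases, AURKA alone passed. AURKA, which matures centrosomes and the spindle, rose by 0.30 ± 0.0719 on the log2 scale (adjusted p = 0.000169), from 105 to 132 TPM, but centred on the mean change it had 0.13 (adjusted p = 0.209). AURKA shares 16.4% of its 31-base stretches with other annotated genes, chiefly RAB3GAP2, so its value is uncertain to that extent. PLK1, which drives mitotic entry and many later steps, had 18329, 17167 and 17738 normalized counts in DMSO and 19352, 19062 and 19220 in Chelator. All Chelator libraries were above all DMSO libraries, but the log2 fold change of 0.11 ± 0.062 did not pass (adjusted p = 0.146). It passed with TMM scaling, at 0.16 and an adjusted p of 0.0155 in DESeq2, and had the opposite sign when centred on the mean change or with the GC and length trends taken out. NEK2, which separates centrosomes, had a value of 0.05. PLK4, which starts centriole duplication, had -0.16 (adjusted p = 0.113), with every Chelator library below every DMSO library. Its coding transcripts went the other way, with 14.2, 15.2 and 13.7 TPM in DMSO and 15.3, 16.8 and 16.4 in Chelator, while its retained-intron transcripts had 31.6 ± 2.57 TPM in DMSO and 24.2 ± 1.49 in Chelator, so the lower gene sum lay in transcripts not annotated as coding. Without DMSO replicate 2 its value was -0.19 (adjusted p = 0.042), and it was -0.20 when Chelator replicate 1 was left out (adjusted p = 0.0324).

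In the spindle checkpoint, 1 of 5 genes rose and 1 fell. BUB3 (chr10:123154402-123170467, plus strand), which brings BUB1 and BUB1B to kinetochores, had 14254, 12435 and 15227 normalized counts in DMSO and 10975, 10850 and 10964 in Chelator. It fell by 0.35 ± 0.0839 on the log2 scale (adjusted p = 0.000125), with the Chelator libraries close together below the DMSO range. MAD2L1 (chr4:120055623-120066858, minus strand), which inhibits CDC20 as the checkpoint signal, had 8234, 5961 and 8288 in DMSO and 11006, 10787 and 11026 in Chelator. Its log2 fold change was 0.55 ± 0.113 (adjusted p = 8.42e-06), and DMSO replicate 2 was well below the other DMSO libraries. Its transcripts did not all rise, and their values are given with transcript usage.

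The checkpoint kinases TTK and BUB1 had log2 fold changes of -0.22 and -0.19 and did not pass, though both did when centred (adjusted p of 0.00268 and 0.00088). Leaving out DMSO replicate 1 gave -0.34 for TTK (adjusted p = 0.00197), and leaving out Chelator replicate 1, whose BUB1 count of 15973 lay within the DMSO range, gave -0.29 for BUB1 (adjusted p = 7.37e-07). BUB1B, the kinase-like partner of BUB3 in the checkpoint complex, had 0.03, with a 95% interval of -0.13 to 0.18.

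The kinetochore genes split within a single complex. NDC80 and NUF2 form the arm that grips the microtubule, and SPC24 and SPC25 the end that sits on the centromere. NDC80 (chr18:2571557-2616635, plus strand) had 4573, 4538 and 4835 normalized counts in DMSO and 6597, 6265 and 6456 in Chelator, a rise of 0.47 ± 0.0704 on the log2 scale (adjusted p = 2.73e-10). NUF2 had 2613, 2663 and 2708 in DMSO and 3619, 3605 and 3409 in Chelator, a rise of 0.41 ± 0.0758 (adjusted p = 3.7e-07). In both genes each Chelator library lay above each DMSO library. SPC24 fell by 0.25 on the log2 scale (adjusted p = 0.00516), and SPC25 had a value of -0.04 (95% interval -0.19 to 0.11).

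CENPF (chr1:214603185-214664574, plus strand), a large protein of the outer kinetochore, had 26034, 28388 and 27389 normalized counts in DMSO and 19462, 16357 and 16151 in Chelator. It fell by 0.65 ± 0.0862 on the log2 scale (adjusted p = 4.84e-13), and the lowest DMSO library was well above the highest Chelator library. CENPE, the kinetochore motor, and CENPA, the histone H3 variant that marks the centromere, had log2 fold changes of 0.01 and -0.05. The interval for CENPE was wide, from -0.19 to 0.22.

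In the chromosomal passenger complex, which corrects wrong attachments and then moves to the midzone, the scaffold fell and the kinase did not pass. INCENP (chr11:62123998-62153169, plus strand), the scaffold, had 16736, 16196 and 16534 normalized counts in DMSO and 11852, 11027 and 11252 in Chelator. Its fall of 0.54 ± 0.0646 on the log2 scale (adjusted p = 2.34e-15) had the smallest adjusted p of the 48, and the groups were far apart. AURKB, the kinase it activates, had a value of -0.13 (adjusted p = 0.301) with overlapping groups, and CDCA8 (borealin) had 0.16 (adjusted p = 0.0504) with Chelator above DMSO in every library. CDCA8 passed with TMM scaling at 0.20 (adjusted p = 0.00399 in DESeq2 and 0.016 in edgeR), without the length offset at 0.17 (adjusted p = 0.0256), with the filter of at least 10 counts in 3 libraries (adjusted p = 0.0404) and without DMSO replicate 1 at 0.19 (adjusted p = 0.0148), but had -0.011 when centred (adjusted p = 0.938).

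BIRC5 (survivin), the fourth subunit, passed narrowly at -0.24 ± 0.0996 (adjusted p = 0.0457) although its groups overlapped, with 16379 normalized counts in the lowest DMSO library and 16704 in the highest Chelator library. It did not pass when DMSO replicate 1 (-0.27, adjusted p = 0.0743), DMSO replicate 3 (-0.13, adjusted p = 0.31), Chelator replicate 1 (-0.24, adjusted p = 0.0989) or Chelator replicate 2 (-0.18, adjusted p = 0.245) was left out, nor with TMM scaling (-0.19). The coding transcripts of BIRC5 had 91.6, 102 and 90.2 TPM in DMSO and 78.2, 73.5 and 76.3 in Chelator. They did not overlap, and this difference was not tested.

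Among the 9 spindle motors and microtubule proteins, 2 rose, 1 fell and 6 did not pass. KIF11 (chr10:92574105-92655395, plus strand), the kinesin that pushes spindle poles apart, had 10852, 10618 and 11124 normalized counts in DMSO and 9059, 7842 and 7821 in Chelator. It fell by 0.40 ± 0.0798 on the log2 scale (adjusted p = 3.92e-06), without overlap. Taking out the GC and length trends left -0.16 (adjusted p = 0.0635). KIF20A, a kinesin of the midzone, rose by 0.25 (adjusted p = 0.00934), but without Chelator replicate 3 it had 0.21 (adjusted p = 0.0687) and centred on the mean change 0.079 (adjusted p = 0.547). HMMR, a spindle protein that binds hyaluronan outside the cell, rose by 0.22 (adjusted p = 0.0101), but without the length offset its value was 0.13 (adjusted p = 0.222) and centred on the mean change 0.055 (adjusted p = 0.665).

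The 6 others ran from -0.13 for KIF23, a motor of the midzone, to 0.13 for NUSAP1, which bundles microtubules. Between them lay TPX2, which activates AURKA, at -0.03, DLGAP5, which stabilizes kinetochore fibres, at 0.01, KIF2C, which shortens microtubules, at 0.05, and PRC1, which crosslinks the midzone, at 0.12. KIF23 passed without DMSO replicate 2 (-0.18, adjusted p = 0.0472) and NUSAP1 without DMSO replicate 1 (0.19, adjusted p = 0.0222). NUSAP1 shares 84.6% and PRC1 60.1% of their 31-base stretches with other annotated genes, mainly with the unnamed genes ENSG00000285920 and ENSG00000284946, so reads could be divided between them and both values are uncertain.

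Of 3 cytokinesis genes, ANLN fell and the others did not pass. ANLN (anillin), the scaffold of the contractile ring, fell by 0.31 on the log2 scale (adjusted p = 0.000354), and with the GC and length trends taken out it had -0.09 (adjusted p = 0.249). ECT2, the exchange factor that activates RhoA, had -0.11, and RACGAP1, a subunit of centralspindlin, had -0.15 (95% interval -0.32 to 0.02). Both passed below DMSO when centred, at -0.28 (adjusted p = 0.00363) and -0.32 (adjusted p = 0.00158).

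At anaphase onset, ESPL1 fell while its inhibitor and the APC/C activator did not pass. ESPL1 (separase), the protease that cuts cohesin, fell by 0.26 on the log2 scale (adjusted p = 0.0029). PTTG1 (securin), which holds separase inactive, had 0.04 (95% interval -0.14 to 0.21). CDC20 had 15351, 14262 and 15149 normalized counts in DMSO and 14356, 14883 and 15193 in Chelator, with a log2 fold change of -0.01 (95% interval -0.14 to 0.12) and overlapping groups. With the GC and length trends taken out it had -0.18 and passed (adjusted p = 0.0024). CDC20 shares 20.6% of its 31-base stretches with the pseudogene CDC20P1.

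UBE2C, the ubiquitin-conjugating enzyme of the APC/C, stood apart from all other members by its level. It had 15, 16 and 12 normalized counts in DMSO and 40, 40 and 14 in Chelator, or 0.315 and 0.702 TPM on average. With so few counts its log2 fold change of 1.14 ± 0.625 did not pass (adjusted p = 0.15), and Chelator replicate 3 lay in the DMSO range. Without that library it had 1.49 (adjusted p = 0.0419). Whether this level is that of the cells or comes from the quantification cannot be told from these files, so its values stand only as quantified.

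All 3 genes of chromosome structure and transcription fell. MKI67 (chr10:128096659-128126423, minus strand), the protein Ki-67 that coats mitotic chromosomes and is used as a proliferation marker, had 34122, 48016 and 35614 normalized counts in DMSO and 27113, 23643 and 24030 in Chelator. It fell by 0.65 ± 0.117 on the log2 scale (adjusted p = 1.56e-07), or to 0.635 of the DMSO level. DMSO replicate 2 was far above the other DMSO libraries, and without it the value was -0.49. With any 1 library left out, the adjusted p was at most 0.000169. TOP2A, the topoisomerase that untangles sister chromatids, fell by 0.30 (adjusted p = 0.000114), but had -0.04 (adjusted p = 0.708) with the GC and length trends taken out. FOXM1, the factor that drives transcription of many G2 genes, fell by 0.23 (adjusted p = 0.00429), from 36.4 to 31.5 TPM. FOXM1 shares 17.4% of its 31-base stretches with other annotated genes, chiefly ITFG2, and reads there could be divided between them.

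Among these genes, those with long transcripts were more often lower, a description that was not tested. Across 47 genes, UBE2C left out, the log2 fold change and the log2 of mean transcript length had Pearson's r = -0.50 and Spearman's rho = -0.42, and these points share the same 6 libraries and the same fragment lengths. Of the 5 genes with transcripts of at least 5 kb, MKI67, CENPF, KIF11 and TOP2A fell and CENPE did not pass, with a median log2 fold change of -0.40. Over the 1016 abundant genes of that length the median was -0.25. Of 33 genes under 3 kb, 8 rose and 5 fell, with a median of 0.03 against -0.04 over all abundant genes of that length, and of the 9 between these lengths 1 rose and 4 fell, with a median of -0.19 against -0.15. The medians of all abundant genes thus also went down with length. Their shares that rose or fell were not counted by length, so the member counts have no background.

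With the GC and length trends of each library taken out, 13 of the 48 rose and 14 fell, and r with length was -0.23. The values were then related to GC content, with r = -0.58 against -0.16 before. CENPF had -0.42, MKI67 -0.48 and INCENP -0.67 in that fit, CCNA2 had -0.24, and all 4 passed. CENPE then passed above DMSO at 0.35 and DLGAP5 at 0.24, and HMMR had 0.48. AURKB passed below at -0.32, and KIF11, ANLN and TOP2A no longer passed. The part of fragment length in these values was not tested.

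**Figure D3:**
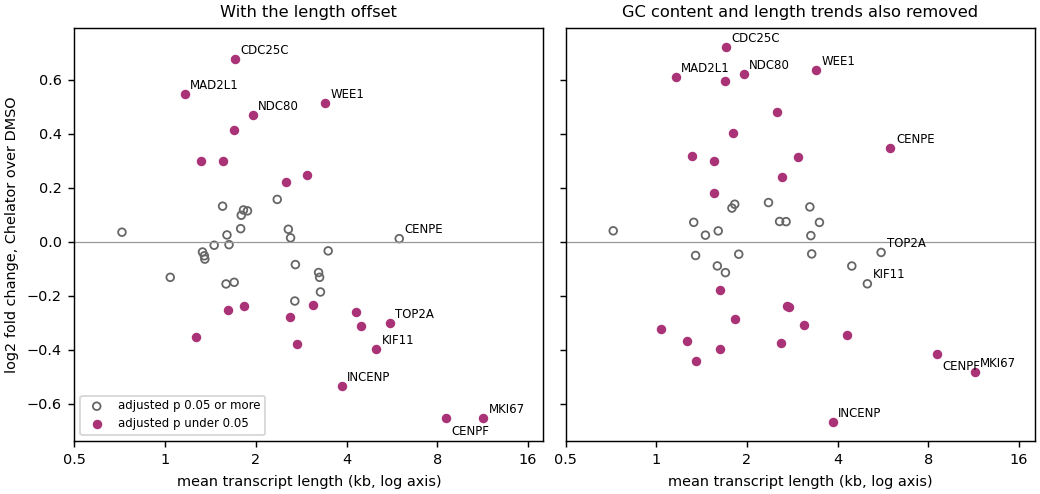
Log2 fold change of 47 genes, Chelator over DMSO, against mean transcript length (kb, log axis), with filled points for an adjusted p under 0.05. On the left, with the length offset, 4 of the 5 genes of at least 5 kb are filled and below 0. On the right, with GC content and length trends also removed, KIF11 and TOP2A are open and CENPE is filled above 0. UBE2C is not drawn.

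Transcript usage was tested in 46 of the 48 genes, and 5 were called (adjusted p under 0.05 by edgeR's Simes test and a change of over 5 percentage points in a transcript's share of the gene's TPM), against 9.22% of 11938 genes tested. These were MAD2L1, NUSAP1, PRC1, NDC80 and HMMR. Each adjusted p for usage belongs to the gene, and the transcript named beside it is the one whose share changed most. The NDC80 transcript had at least 10 counts in the 3 Chelator libraries alone, so it entered the test only through the group where it was high, and its call is not read as a result. The members called numbered between 1 and 5 when single libraries were left out. Of the 4 others, PRC1 alone was called without Chelator replicate 2 and without Chelator replicate 3, and HMMR alone without DMSO replicate 2.

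The rise of MAD2L1 was in a transcript that is not annotated as coding. The share of MAD2L1-204, a short transcript annotated as a retained intron, was 40.1%, 36.2% and 54.2% of the gene's TPM in DMSO and 62.3%, 62.0% and 66.9% in Chelator (adjusted p of the gene = 0.0384). Its estimated counts were 1068, 707 and 1241 in DMSO and 2599, 2902 and 2678 in Chelator. All Chelator values were above the DMSO values, and DMSO replicate 3 was the highest of its group. The protein-coding transcript MAD2L1-201 had 13.7, 14.8 and 13.1 TPM in DMSO and 11.1, 11.9 and 11.5 in Chelator, so that it was lower in each Chelator library. MAD2L1-202, annotated for nonsense-mediated decay, had 55.3, 52.6 and 44.5 TPM in DMSO and 51.3, 54.5 and 42.6 in Chelator, with overlap. The length offset gives more weight to counts on a short transcript, and without it the log2 fold change of the gene was 0.03 (adjusted p = 0.845). How salmon divides reads among transcripts that share exons is an estimate. The usage call was lost when a library was left out, for DMSO replicate 2 (adjusted p = 0.128), Chelator replicate 1 (adjusted p = 0.113), Chelator replicate 2 (adjusted p = 0.318) or Chelator replicate 3 (adjusted p = 0.443), and also when transcripts with at least 5 counts in 3 libraries entered (adjusted p = 0.0523).

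The other calls were smaller. NUSAP1-206, with no defined coding sequence, went from 39.9% ± 0.798 to 29.5% ± 1.63 (SD, n = 3, adjusted p = 0.0384). Its call was lost with the replicate block (adjusted p = 0.0796) and without DMSO replicate 1 (adjusted p = 0.207), DMSO replicate 2 (adjusted p = 0.0763), Chelator replicate 2 (adjusted p = 0.257) or Chelator replicate 3 (adjusted p = 0.256). PRC1-205, a retained intron, went from 17.4% ± 1.05 to 10.2% ± 2.99 (adjusted p = 0.00456), and its call was lost without DMSO replicate 2 (adjusted p = 0.0519). The retained-intron transcripts of PRC1 together did not go down, with 37.2 ± 1.58 TPM in DMSO and 44.1 ± 0.695 in Chelator, higher in every Chelator library. HMMR-201, which is protein coding, went from 10.8% ± 0.453 to 4.04% ± 1.79 (adjusted p = 0.0207), a call lost without DMSO replicate 1 or 3 or Chelator replicate 2 or 3 (adjusted p of 0.11, 0.0547, 0.13 and 0.269). NDC80-204, a short coding transcript, had 0, 0 and 6 estimated counts in DMSO and 67, 84 and 175 in Chelator, and is given as a description. In none of these shares did the groups overlap. The transcripts were picked for the largest change in these same libraries, so this adds no support. Coding TPM rose with the gene sum in NDC80, from 37.5 ± 2.77 to 55.5 ± 0.319, in WEE1, from 22.4 ± 1.55 to 34.9 ± 1.27, and in CDC25C, from 11.8 ± 0.605 to 19.1 ± 0.541.

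**Figure D4:**
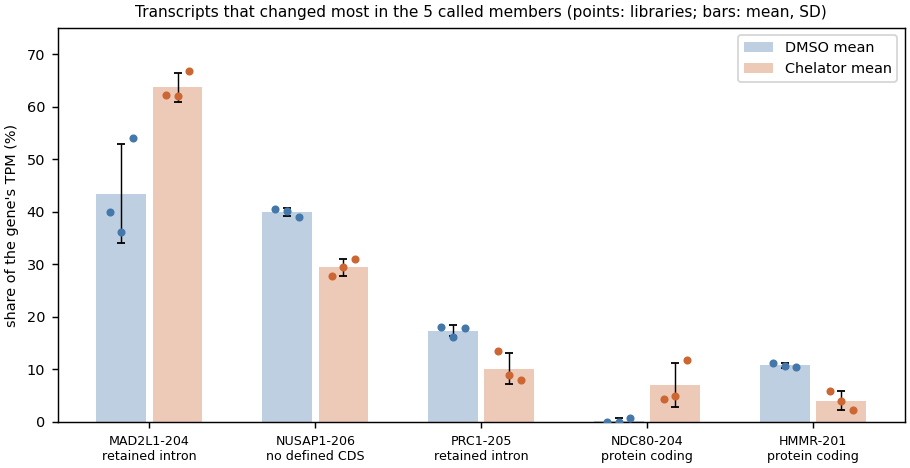
Share of the gene's TPM (%) taken by the transcript with the largest change in the 5 genes called for transcript usage, with points for libraries, bars for the mean and error bars for the SD (n = 3). MAD2L1-204 goes from 43.5% to 63.8%, while NUSAP1-206, PRC1-205 and HMMR-201 are lower in every Chelator library.

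Retained-intron transcripts took 7.31% ± 0.754 of the TPM of the 48 genes in DMSO and 9.76% ± 0.436 in Chelator, and 5.43% ± 0.204 and 6.41% ± 0.341 of the TPM of all genes. The groups overlapped in neither. MAD2L1 held most of the gain among the 48, and without it, a value added after seeing the data, the share was 5.94% ± 0.343 in DMSO and 6.75% ± 0.338 in Chelator. Of 32 members with such a transcript, the share was higher in every Chelator library in 7 (21.9%) and lower in every one in 4 (12.5%), against 26.0% and 8.51% of the 5616 genes that have such a transcript and a mean normalized count of at least 1000. It was 15.9% in DMSO and 23.8% in Chelator for ESPL1, without overlap, and was lower for PLK4, from 63.6% to 53.3%, and for BUB1, from 26.3% to 20.7%. These shares were not tested gene by gene.

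Neighbouring genes of the cell cycle were counted for comparison, and those named passed the test. Their counts stand against 24.6% that rose, 38.0% that fell and a median log2 fold change of -0.090 among the abundant genes, and no list was tested as a group. These lists were not filtered by abundance. Over all genes tested, 18.2% rose and 17.1% fell, with a median of 0.02. Of 17 APC/C subunits and regulators, 2 rose and 9 fell with a median log2 fold change of -0.23, including ANAPC1 at -1.03 and ANAPC16 at 0.91. Of 15 cohesin genes, 2 rose and 7 fell, with a median of -0.25 and with STAG1 at -0.85 and SMC3 at -0.45. Of 8 condensin genes, 1 rose and 3 fell, with SMC2 at -0.58 and NCAPG2 at 0.41. Of 31 other kinetochore and checkpoint genes, 10 rose and 5 fell, with CENPQ at 0.64 and CENPP at -0.64, and of 25 other spindle genes 8 rose and 8 fell, with ASPM at -0.70 and CKAP5 at -0.51. Of 18 other mitotic kinases and phosphatases, 6 rose and 5 fell. ENSA and ARPP19, which inhibit the same phosphatase, went apart at 0.64 and -0.41. With the GC and length trends taken out, SMC3 had -0.15 (adjusted p = 0.123) and ARPP19 -0.18 (adjusted p = 0.0617) and neither passed, while SMC2 had -0.29, ASPM -0.33 and CENPQ 1.01. Without the length offset, NCAPG2 had 0.23 and ARPP19 -0.77, and centred on the mean change NCAPG2 had 0.25.

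Lists of MuvB and B-MYB regulators and of checkpoint, replication and G1 genes also held changes in both directions. Of 15 genes of the MuvB, DREAM and B-MYB system, 2 rose and 3 fell, with LIN37 at 0.52 and TFDP2 at -0.41. LIN37 did not pass when centred on the mean change (0.35, adjusted p = 0.088) or with the GC and length trends taken out (0.25, adjusted p = 0.192). Of 9 G2 checkpoint genes tested, 1 rose and 5 fell, with the damage-signalling genes RBBP8 at -0.85 and ATR at -0.84. Of 48 DNA replication genes, 7 rose and 18 fell, with DBF4 at -0.49 and LIG1 at 0.47, which was 0.31 with those trends taken out or when centred and 0.30 without the length offset. Of 17 G1 cyclins and CDK inhibitors tested, 8 rose and 5 fell. CDKN1A (p21), an inhibitor of CDK complexes, had the largest rise of all these lists at 3.51 ± 0.11, from 537 ± 74.6 to 6125 ± 471 normalized counts, and CCND1 (cyclin D1) rose by 1.61.

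Markers of the line were as labelled. All 13 erythroid and K562 markers exceeded 1 TPM in every library, with a summed level of 12811 to 14163 TPM in DMSO and 17917 to 19096 TPM in Chelator, mostly from the globins HBG1, HBG2 and HBE1. Of these markers 5 rose (HBG1, HBG2, HBE1, HBZ and ALAS2) and 5 fell (KLF1, LMO2, NFE2, EPOR and TAL1), with a median log2 fold change of 0.02. KLF1, an erythroid transcription factor, went from 77.8, 87.4 and 80.7 TPM in DMSO to 47.7, 52.0 and 52.9 TPM in Chelator. T and B cell markers summed to 12.4 to 18.4 TPM in DMSO and 42.9 to 45.0 TPM in Chelator, with 2 of 8 above 1 TPM in all libraries and MS4A1 at 0. Monocyte and granulocyte markers summed to 11.4 to 12.2 and 19.1 to 20.9 TPM, with 1 of 6 above 1 TPM and ELANE at 0. Epithelial and fibroblast markers summed to 422 to 483 and 1090 to 1239 TPM, with 4 of 8 above 1 TPM in all libraries, chiefly KRT8. Of the 7 of these tested, 4 rose, KRT8 by 1.60 on the log2 scale, and 2 fell, EPCAM by 0.48 (adjusted p = 1.7e-07) and COL1A2 by 0.48 (adjusted p = 0.0027). Their part in the changes of mitosis genes was not tested.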

How the data were processed

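RNA from 3 DMSO and 3 Chelator samples of K562 cells was compared, with groups and replicate numbers from the sample titles. The authors quantified reads with Salmon 1.10.2, and the deposited files give an estimated count and a TPM value for each of 252045 transcripts. Strand setting and index annotation were not given in the sources used here. Transcripts were matched to GENCODE release 44. The 433 without a match, at most 0.150% of a library, were left out, and estimated counts were summed per gene and rounded.

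DESeq2's Wald test (version 1.42.0, R 4.3.3) follows the authors' methods. Applying their count threshold of 10 to each gene's total, and average transcript length as offset, were choices made here. P-values were Benjamini-Hochberg adjusted over genes. In the main DESeq2 fit, 25553 of the 26074 genes tested had an adjusted p, and the others count as not passed. Transcript usage was tested with edgeR 4.0.16 (diffSpliceDGE) on transcripts with at least 10 counts in 3 libraries. Alternatives were edgeR and TMM scaling, centring, other filters, no length offset, GC and length trends, limma 3.58.1 for usage, the replicate block and leaving out each library. The tests were checked on simulated data.

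Values in every library are given for the 6 largest rises and falls among members that passed and for CDK1, CCNB1, PLK1, CDC20 and MKI67, and at most 2 genes are named per neighbouring list. UBE2C is added as it fell outside this rule and was chosen after its values were seen. The members and lists were chosen with earlier results of these data known.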

Additional observations from a re-analysis of the deposited data

How the results depend on the processing

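The 22 members that passed kept their sign in every alternative, and those that lost significance in at least 1 were ANLN, AURKA, BIRC5, CCNB2, HMMR, KIF11, KIF20A, MAD2L1 and TOP2A. Counts of members higher and lower were 5 and 26 with centring on the mean change, 13 and 12 with TMM size factors, 11 and 12 with edgeR and 13 and 14 with GC and length trends taken out. Leaving out single libraries gave 9 to 11 higher and 12 to 15 lower, and 0 to 1 past the fold threshold, the 1 being UBE2C without Chelator replicate 3. Members that had not passed changed sign as follows, in log2 fold change. TMM scaling gave CCNB1 0.032, CDC20 0.034, SPC25 0.0068 and TPX2 0.011, and edgeR gave CCNB1 0.032, CDC20 0.034, SPC25 0.0069 and TPX2 0.011. Centring gave BUB1B -0.14, CDCA8 -0.011, CDK1 -0.070, CENPE -0.16, DLGAP5 -0.15, KIF2C -0.12, NEK2 -0.12, NUSAP1 -0.036, PLK1 -0.053, PRC1 -0.050 and PTTG1 -0.13. Without the length offset the values were BUB1B -0.055, CDC20 0.0047, CDK1 -0.039, CENPE -0.18, DLGAP5 -0.022 and PLK4 0.027. Taking out GC and length trends gave CCNB1 0.024, ECT2 0.13, KIF23 0.023, PLK1 -0.046, SPC25 0.072, TPX2 0.072 and TTK 0.075. Leaving out single libraries gave the ranges BUB1B -0.013 to 0.084, CCNB1 -0.061 to 0.018, CDC20 -0.046 to 0.015, CENPA -0.10 to 0.0045, CENPE -0.080 to 0.10, DLGAP5 -0.083 to 0.073, KIF2C -0.019 to 0.095, NEK2 -0.0023 to 0.077, PTTG1 -0.023 to 0.11 and TPX2 -0.10 to 0.016. The cause was not tested.

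For transcript usage, limma called 14 members and 3184 genes but not PRC1 (adjusted p = 0.07) or NDC80 (adjusted p = 0.0543). A change of over 10 points left 2 members and 728 genes. Leaving out single libraries gave 1 to 5 members and 539 to 1063 genes. The labels do not say that replicate numbers mark a pairing, and the deviations of same-numbered libraries correlated at -0.074, 0.13 and 0.11. With the replicate block, 9 members were higher and 13 lower, as without it, and 4 rather than 5 were called for usage, NUSAP1 being lost.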
